A study of Homo sapiens with 32 samples.

Results

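The KLF genes encode Krüppel-like factors, transcription factors that bind GC-rich and CACCC elements with zinc fingers at their carboxy terminus. The members are 10 KLF genes picked by name: KLF2, KLF3, KLF4, KLF5, KLF6, KLF7, KLF9, KLF10, KLF11 and KLF13, of 57773 genes in each table of counts. They were picked with earlier results of these data known, and other KLF genes stand in a separate list. A count of members set beside the share of all genes is therefore no test of the family. Some members, such as KLF2, KLF4, KLF5, KLF6 and KLF7, are mostly known as activators of transcription. Others recruit repressors: KLF3 binds the corepressor CtBP, and KLF9, KLF10, KLF11 and KLF13 bind the Sin3A complex. Several KLF genes are known as early response genes of growth factors, and KLF5 is known to promote proliferation of epithelial and vascular smooth muscle cells.

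The transcripts were measured by RNA-seq of HEK293 cells, an established line of human embryonic kidney cells, which were transiently transfected with the angiotensin II receptor AT1R in all groups, controls included. Cells in serum-free medium were kept for 6 h or 24 h without stimulus (control), with AII (angiotensin II, 1 nM), with EGF (epidermal growth factor, 10 µg/L) or with both (AII+EGF). Each condition had 4 libraries after 6 h and after 24 h, except AII+EGF after 24 h, of which 3 were analysed here. The labels give no replicate numbers, and those used below follow the order of library numbers within a condition. A transiently transfected culture is a mixture of cells that took up different amounts of the plasmid, and in bulk RNA fewer responding cells and less RNA per cell cannot be told apart. The labels do not say that the libraries of a condition came from separate cultures, so the p-values measure the spread between these libraries, which may be technical.

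Total counts per library were 3881841 to 8540815 after 6 h and 6646227 to 33070903 after 24 h. After 24 h, genes of U1 small nuclear RNA took 8.90% to 57.2% of a library, against at most 0.300% after 6 h, and the AII replicate 3 and the AII+EGF replicate 4 were above 50% (57.2% and 55.6%). The 10 KLF genes together held 2098 to 5164 counts per library after 6 h and 2154 to 5556 after 24 h. AGTR1, which encodes AT1R, was at 950.1 to 1191 FPM in control and 1023 to 1236 FPM with EGF after 6 h (FPM, edgeR's counts per 1000000 after TMM normalization). It was higher in every library that received AII, at 1318 to 1515 FPM with AII and 1414 to 1568 FPM with AII+EGF, and the part of this difference in the AII comparisons was not tested. After 24 h the AGTR1 ranges of the 4 conditions overlapped (368.9 to 685.0 FPM in all). Of the markers looked at for the cell line, VIM was at 260.7 to 321.7, NEFM at 358.0 to 811.4, KRT8 at 7.35 to 15.5 and KRT18 at 2.10 to 8.40 FPM after 6 h, while the renal marker PAX2 did not exceed 1.16 FPM. The leukocyte marker PTPRC stayed at or below 0.301 FPM and the hepatocyte marker ALB at or below 1.05 FPM, whereas the smooth muscle marker MYH11 was at 10.4 to 21.4 FPM. EGR1, an immediate early gene that responds to EGF, was at 1.39 to 2.87 FPM in control and 2.34 to 4.0 FPM with AII after 6 h. It reached 47.8 to 54.7 FPM with EGF, and AII+EGF gave 49.2 to 68.5 FPM.

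KLF proteins and the related SP factors bind the GC box, and windows before the transcription start of KLF5 and KLF13 are shown because these members rose most with EGF. The sequences are the 250 bases before a RefSeq start in build GRCh38.p14, written 5′ to 3′ on the strand of the gene. The capitals mark the GC box (GGGCGG) and the CACCC box (CACCC), each searched on both strands; a GC box can also be a part of an EGR site. The KLF13 window is chr15:31326585-31326834 on the plus strand, and the KLF5 window is chr13:73058755-73059004 on the plus strand, before the second of its listed starts.
KLF13: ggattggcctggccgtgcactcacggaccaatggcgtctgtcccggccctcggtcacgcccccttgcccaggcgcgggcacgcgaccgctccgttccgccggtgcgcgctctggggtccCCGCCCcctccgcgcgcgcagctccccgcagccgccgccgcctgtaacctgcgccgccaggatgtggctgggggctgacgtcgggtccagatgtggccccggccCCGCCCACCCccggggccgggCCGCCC
KLF5: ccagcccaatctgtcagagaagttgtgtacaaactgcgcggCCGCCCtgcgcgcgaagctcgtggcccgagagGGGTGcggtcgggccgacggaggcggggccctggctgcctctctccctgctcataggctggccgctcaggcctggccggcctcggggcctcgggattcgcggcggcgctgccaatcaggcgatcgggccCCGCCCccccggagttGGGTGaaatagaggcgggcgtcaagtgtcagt

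The KLF13 window holds 3 GC boxes and 1 CACCC box, which shares 1 base with the middle GC box, and the KLF5 window shown holds 2 of each. The window before the first listed KLF5 start, which is not shown, holds 0 GC boxes and 1 CACCC box, with a GC content of 40.8% against 70.8% in the window shown. Such letters are common: a GC box stands in 42.6% and a CACCC box in 54.7% of 35116 promoter windows of the same length. Windows of 8 of the 10 members were searched, with 13 starts in all. A GC box was found before 8 and a CACCC box before 6 of these starts. The EGR site (GCGNGGGCG) was found before KLF2, KLF4 and KLF6 and in 8.41% of all windows, the cAMP response element (TGACGTCA) before KLF11 and in 1.65%, the CArG box, to which SRF binds, before KLF7 and in 1.16%, and the MEF2 site before KLF2 and in 2.80%. The AP-1 site (TGANTCA) and the ETS core (CCGGAA), present in 6.57% and 14.5% of all windows, were found before none of the 13 starts. KLF3 and KLF10 were not searched for any of these sites, and member windows on chromosome 8, where KLF10 lies, were left out of the search. These matches describe letters, and no binding was measured here.

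The KLF transcripts differed widely in abundance. On a scale per length (FPKM, FPM divided by the exonic length in kb), KLF4 and KLF3 were highest in control cells after 6 h, at 24.5 ± 1.77 and 23.6 ± 3.15 (SD, n = 4), with overlapping libraries. KLF10 followed at 13.6 ± 2.24, KLF9 at 10.2 ± 0.390, KLF11 at 8.45 ± 0.263 and KLF13 at 7.22 ± 0.468 FPKM, each without overlap with its neighbours in this order. KLF5 and KLF6, at 4.96 ± 0.784 and 4.91 ± 0.706 FPKM, did not differ beyond their spread, nor did KLF7 and KLF2 at 0.340 ± 0.0772 and 0.201 ± 0.161 FPKM. KLF2, an endothelial factor that responds to flow, had 1 to 9 counts per library after 6 h and did not pass the filter on low counts, so that 9 members were tested after 6 h and 10 after 24 h.

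**Figure D1:**
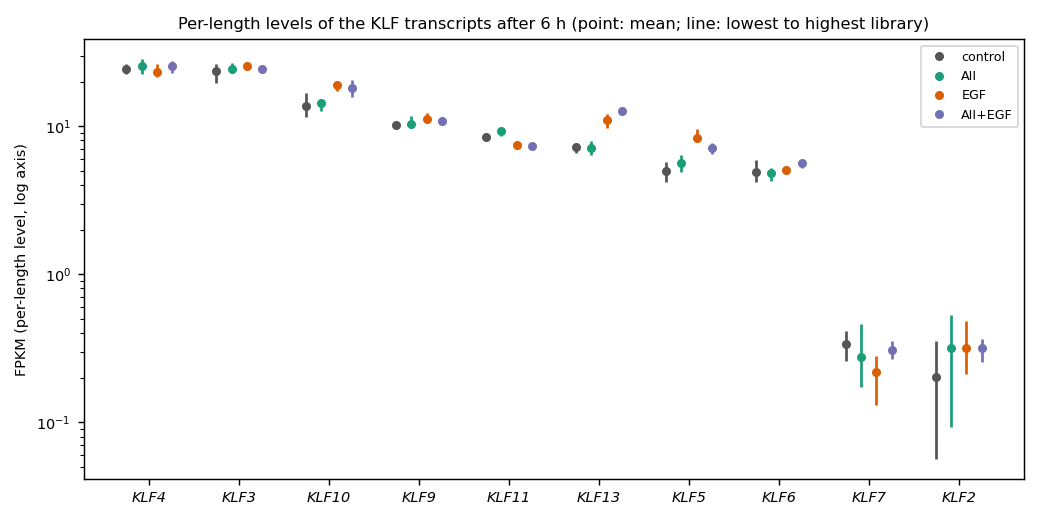
Per-length level (FPKM, log axis) of each KLF transcript after 6 h by condition, ordered by the control level. Points are means and lines run from the lowest to the highest of 4 libraries. KLF4 and KLF3 lie highest in every condition, KLF7 and KLF2 lowest, and KLF13 moves from 7.22 in control to 12.6 with AII+EGF.

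With EGF the order changed in its middle part. KLF13 rose to 10.97 ± 1.01 FPKM and then overlapped KLF9 at 11.2 ± 0.752, and KLF5, at 8.30 ± 0.857, lay above KLF11 at 7.50 ± 0.363. With AII+EGF, KLF13 at 12.6 ± 0.271 FPKM lay above all libraries of KLF9 at 10.9 ± 0.451. After 24 h, KLF10 and KLF4 were the highest in control cells, at 13.3 ± 2.70 and 12.8 ± 0.695 FPKM, and overlapped. Levels of the 6 h and 24 h tables come from separate normalizations and are not compared.

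**Figure D2:**
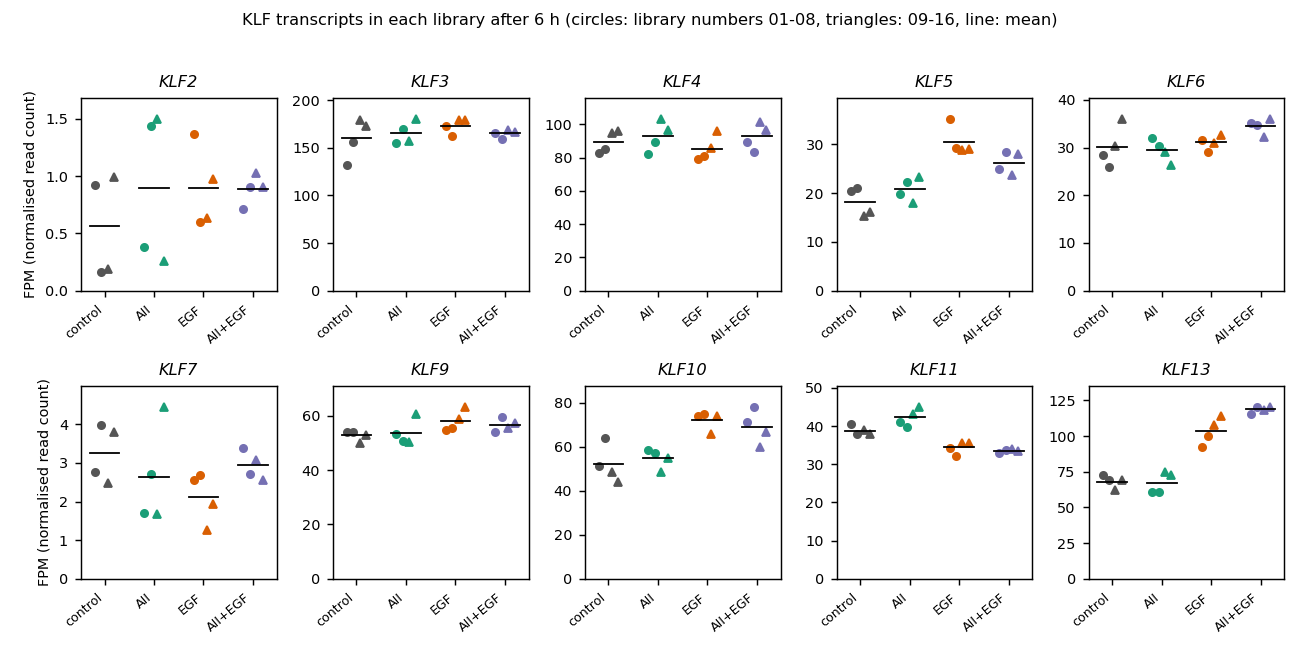
FPM (normalised read count, linear axes from 0) of the 10 KLF transcripts in the 16 libraries after 6 h. Circles and triangles mark the 2 runs of library numbers and lines the means. KLF5, KLF9, KLF10 and KLF13 lie higher with EGF than in any control library, and KLF11 lies lower.

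EGF raised 3 of the 9 tested members after 6 h and lowered no member (adjusted p under 0.05, edgeR's quasi-likelihood test with Benjamini-Hochberg adjustment over 18618 genes). The 3 are KLF5, KLF10 and KLF13, and 5.97% of all tested genes passed that test. KLF8, a KLF gene outside the members, passed as well and was lower with EGF (log2 -0.34, adjusted p = 0.0088 in edgeR). When a fold change above 1.5 and more than 5 FPM were also required, KLF5 and KLF13 remained, against 1.73% of all genes. The median log2 fold change of the 9 members was 0.11, against -0.01 over all tested genes. In 5 members (KLF5, KLF9, KLF10, KLF11 and KLF13) the EGF and control libraries did not overlap, which held for 12% of all genes. In exact two-sided permutation tests on FPM, each of these 5 gave p = 0.0286, the smallest value that 4 against 4 libraries can give. Groups of 4 that do not overlap always give this value, so it adds nothing to the separation itself.

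KLF5, an activator known from proliferating epithelia, lies at chr13:73629114-73651679 on the plus strand (hg19 coordinates, as for all genes below). It measured 20.4, 21.1, 15.3 and 16.2 FPM in the control libraries. With EGF it measured 35.2, 29.1, 28.7 and 29.0 FPM. All 4 EGF libraries were above all control libraries, and the first of them stood apart from the other 3. The log2 fold change was 0.74 (SE 0.12, 95% interval 0.49 to 0.99), that is 1.67-fold, with an adjusted p of 4.7e-04 in edgeR. Within the 2 runs of library numbers, 01 to 08 and 09 to 16, the difference was 0.62 and 0.85 on the log2(FPM + 0.5) scale.

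KLF13, known as a regulator of the chemokine gene CCL5 in lymphocytes, lies at chr15:31619038-31727868 on the plus strand. Its control libraries measured 72.4, 68.9, 61.9 and 69.0 FPM. Its EGF libraries measured 92.0, 100.1, 107.6 and 114.1 FPM. No EGF library overlapped with control, and the gap between the groups was somewhat narrower than the range of the EGF libraries. The log2 fold change was 0.61 (SE 0.084, 95% interval 0.43 to 0.78; 1.52-fold; adjusted p = 7.2e-05 in edgeR). Within the runs of library numbers it was 0.44 and 0.76. Because 1.52 lies close to the fold limit of 1.5, the call was lost without control replicate 3 (log2 0.57) or EGF replicate 4 (log2 0.56), although the adjusted p stayed at or below 6.5e-04 whichever library was left out.

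KLF10, a gene induced by TGF-beta and a partner of Sin3A, lies at chr8:103661012-103667953 on the minus strand. It measured 51.3, 64.1, 48.7 and 44.2 FPM in control and 73.9, 74.9, 65.8 and 74.1 FPM with EGF. The highest control library came close to the lowest EGF library, but the groups did not overlap. The log2 fold change of 0.47 (SE 0.10, 1.38-fold, adjusted p = 0.0068 in edgeR) stayed below the fold limit of 1.5, and the 2 runs of library numbers gave 0.37 and 0.59.

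KLF11, the nearest relative of KLF10, moved the other way in its values. Its control libraries were at 37.9 to 40.5 FPM and its EGF libraries at 32.1 to 35.7 FPM, without overlap, but the log2 fold change of -0.17 (95% interval -0.33 to -0.0041) had an adjusted p of 0.23 in edgeR. KLF9, which responds to glucocorticoids and thyroid hormone, had control libraries at 49.8 to 54.1 and EGF libraries at 54.9 to 63.4 FPM, with a log2 fold change of 0.14 (95% interval -0.024 to 0.31, adjusted p = 0.34). A gene on the opposite strand covers 9.06% of the exonic length of KLF11, and the strand setting of the counting is not stated, so reads of both cannot be told apart there. The same holds for 3.91% of the exonic length of KLF3, which KLF3-AS1 covers. It also holds for 9.75% of the exonic length of KLF4, covered by an opposite-strand gene that was not among the genes counted.

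For the remaining members the intervals limit the size of an EGF effect. KLF3, which silences genes through CtBP, had a log2 fold change of 0.11 (95% interval -0.056 to 0.28) and KLF4, a pluripotency and differentiation factor, one of -0.07 (-0.25 to 0.11). KLF6, which responds to tissue injury, was at 25.8 to 36.1 FPM in control and 29.1 to 32.6 FPM with EGF (log2 0.04, interval -0.17 to 0.25). KLF7, a factor of neuronal development, had 8 to 25 counts per library, and its interval of -1.30 to 0.0049 leaves its response at this depth unresolved (log2 -0.64, adjusted p = 0.25).

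With AII alone no member passed the test after 6 h. No gene of the whole table passed the test (0%; 845 of 18618 genes had an unadjusted p under 0.05, of which none was a KLF gene). KLF5 measured 19.8, 22.2, 18.0 and 23.4 FPM with AII, and KLF13 60.5, 60.8, 74.7 and 72.4 FPM, and both overlapped with control. Within the runs of library numbers KLF13 differed from control in opposite directions, by -0.22 and 0.17, with 2 libraries per condition and no overlap in either run. For KLF5 the values within the runs were 0.019 and 0.37. The intervals of the log2 fold change were -0.080 to 0.45 for KLF5, -0.15 to 0.29 for KLF10 and -0.20 to 0.16 for KLF13. None of the 10 members was separated from control in every library, against 2.14% of all tested genes.

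AII+EGF raised the same 3 members that EGF raised, KLF5, KLF10 and KLF13 (adjusted p under 0.05 in edgeR; 6.1% of all tested genes passed). Both comparisons share the control libraries. With the fold and FPM limits KLF13 alone remained, against 1.95% of all genes. The libraries of KLF5, KLF9, KLF11 and KLF13 did not overlap with control, which held for 12.1% of all genes, and the median log2 fold change of the 9 members was 0.10, against -0.01 over all genes.

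KLF13 was at 115.3, 120.6, 118.6 and 120.8 FPM in the AII+EGF libraries. These 4 values lie close together, above all control and EGF libraries. The log2 fold change against control was 0.80 (SE 0.084, 95% interval 0.63 to 0.98), that is 1.75-fold (adjusted p = 1.0e-06 in edgeR), and it was 0.74 and 0.87 within the 2 runs of library numbers.

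KLF5 measured 24.8, 28.3, 23.7 and 28.0 FPM with AII+EGF, above every control library and below every EGF library. Its log2 fold change against control was 0.52 (SE 0.12, 1.44-fold, adjusted p = 0.011 in edgeR; 0.35 and 0.69 within the runs of library numbers), and without control replicate 3 the adjusted p was 0.050 and it no longer passed. KLF10 measured 71.1, 78.3, 59.7 and 66.8 FPM, and its lowest library overlapped with the highest control library. Its log2 fold change of 0.40 (SE 0.10, 1.32-fold, adjusted p = 0.022 in edgeR; 0.38 and 0.44 within the runs) no longer passed without control replicate 3 or 4 or without AII+EGF replicate 1 or 2 (adjusted p 0.057 to 0.089). KLF11 was at 32.9 to 34.1 FPM, below every control library, with a log2 fold change of -0.21 and an adjusted p of 0.14.

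**Figure D3:**
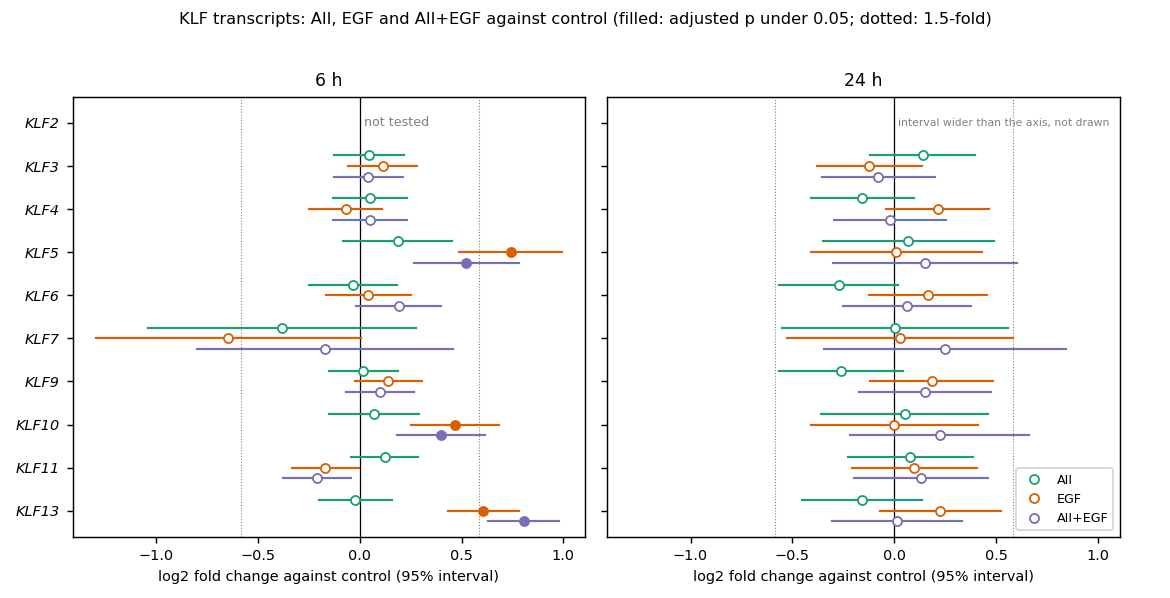
Log2 fold change against control (x axis, with 95% interval) of each KLF transcript after AII, EGF and AII+EGF, at 6 h and 24 h. Filled points have an adjusted p under 0.05 in edgeR and dotted lines mark 1.5-fold; KLF2 is not drawn. Filled points are found for KLF5, KLF10 and KLF13 at 6 h, with EGF and with AII+EGF, and for no member at 24 h.

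Whether AII adds to EGF was asked by setting AII+EGF against EGF alone. No gene passed the test (0%; 1352 genes, 1 KLF gene among them, had an unadjusted p under 0.05). The libraries of KLF13 and KLF5 did not overlap between AII+EGF and EGF, in opposite directions, which held for 5.59% of all genes. KLF13 was higher with AII+EGF by 0.20 on the log2 scale (95% interval 0.030 to 0.37, adjusted p = 0.68 in edgeR), with 0.30 and 0.11 within the runs of library numbers. KLF5 was lower by a log2 value of -0.22 (95% interval -0.46 to 0.022, adjusted p = 0.68), with -0.27 and -0.16 within the runs. Its groups were close, at most 28.3 FPM with AII+EGF and at least 28.7 FPM with EGF. Without EGF replicate 1 the log2 values were 0.14 for KLF13 and -0.15 for KLF5 (adjusted p = 0.98 each in edgeR).

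The interaction term, the AII+EGF effect in log2 units minus both single effects, passed for no gene (0%; 1491 genes had an unadjusted p under 0.05). It was 0.22 for KLF13 (95% interval -0.027 to 0.47, adjusted p = 0.66) and -0.40 for KLF5 (-0.76 to -0.046, adjusted p = 0.60 in edgeR). KLF5 was the 1 member with an unadjusted p under 0.05.

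Set against AII instead of control, AII+EGF raised KLF13 and lowered KLF11 among the members (adjusted p under 0.05 in edgeR, as for 5.93% of all genes). KLF13 also met the fold and FPM limits, as did 1.87% of all genes. KLF13 had a log2 fold change of 0.83 (SE 0.084, 1.77-fold, adjusted p = 7.0e-07), with 0.95 and 0.70 within the runs of library numbers. KLF11, which binds GC-rich sites and recruits Sin3A, measured 41.1, 39.7, 43.2 and 45.1 FPM with AII and 32.9, 33.8, 34.1 and 33.4 FPM with AII+EGF. The groups were far apart, and the log2 fold change was -0.33 (SE 0.080, 0.796-fold, adjusted p = 0.013). It was -0.27 and -0.38 within the runs, and without the filter on low counts the adjusted p was 0.13. KLF5 (log2 0.34, adjusted p = 0.11) and KLF10 (0.33, adjusted p = 0.065) did not pass, although their libraries, like those of KLF6, KLF11 and KLF13, did not overlap between AII+EGF and AII (12.8% of all genes). KLF10 passed with the runs of library numbers as a block (adjusted p = 0.018), in DESeq2 (0.042), without the filter on low counts (0.019) and without AII+EGF replicate 3 (0.040), whereas KLF5 passed in none of its 13 alternatives (adjusted p 0.073 to 0.25).

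The other genes around the family were read from 3 lists: 16 further KLF and SP genes, 17 cofactors and regulators of KLF proteins such as CTBP1, SIN3A, HDAC1 and EP300, and 15 genes known as KLF targets. Of the further family members, 10 were tested after 6 h, and KLF8, a CtBP-binding repressor that KLF3 is known to silence, was the 1 that passed (5.97% of all tested genes did so with EGF and 6.1% with AII+EGF), lower with EGF (log2 -0.34, adjusted p = 0.0088 in edgeR) and with AII+EGF (log2 -0.37, adjusted p = 0.0035). Its control libraries were at 130.9 to 154.4 FPM and its EGF libraries at 104.2 to 121.3 FPM. All 17 cofactors and regulators were tested and none passed in any comparison after 6 h. In edgeR, 1 had an unadjusted p under 0.05 with EGF and 2 with AII+EGF, against 20.2% and 18.9% of all tested genes. The median log2 fold change with EGF was -0.09 over the family list, -0.03 over the cofactors and 0.24 over the 9 tested targets.

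Of the 9 tested targets, 2 rose and 1 fell with EGF, and likewise with AII+EGF and in the comparison of AII+EGF with AII, where 5.97%, 6.1% and 5.93% of all tested genes passed in either direction. CCND1, which encodes cyclin D1 and is known as a KLF5 target, was at 85.5 to 94.6 FPM in control and 120.7 to 147.1 FPM with EGF (log2 0.56, SE 0.076, adjusted p = 4.5e-05 in edgeR). CDKN1A, which encodes the cell cycle inhibitor p21 and is known as a target of KLF4 and KLF6, was at 57.1 to 83.7 FPM in control and 81.9 to 91.3 FPM with EGF, with overlap (log2 0.39, adjusted p = 0.021). With EGF it no longer passed in 5 of 8 fits without a library, those without control replicate 3 or 4 or EGF replicate 1, 2 or 4 (adjusted p 0.051 to 0.077). The target that fell is KLF8, which stands in both lists and was counted under both. With EGF it no longer passed without EGF replicate 3 (adjusted p = 0.052).

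Across the 16 libraries after 6 h, the genes whose profile was most like that of KLF13 among 13000 genes were TNC, HK2 and PFKP, with Pearson r of 0.984, 0.979 and 0.975 on log2(FPM + 0.5) values. TNC encodes the matrix protein tenascin C, HK2 hexokinase 2 and PFKP the platelet isoform of phosphofructokinase, both enzymes of glycolysis. Their log2 fold changes with EGF were 0.76, 0.79 and 0.68, and with AII+EGF 0.91, 0.99 and 0.85. For KLF5 the most alike were the long non-coding RNA RP6.99M1.2 (r = 0.932), CNN3, which encodes calponin 3 (0.915), and NDUFAF4, an assembly factor of respiratory complex I (0.905). With EGF these 3 had log2 fold changes of 0.88, 0.37 and 0.52, and with AII+EGF of 0.70, 0.28 and 0.25. The libraries share their condition and their depth, so these correlations describe a common response pattern over 4 conditions.

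After 24 h no KLF transcript passed the test in any comparison. The background was low as well: of 22174 tested genes, 0.0316% passed with EGF, 0.0271% with AII+EGF, 0.0451% between AII+EGF and AII, and 0% with AII, between AII+EGF and EGF and for the interaction. At an unadjusted p under 0.05 there were 1881 genes with EGF, 1198 with AII+EGF, 552 with AII, 747 between AII+EGF and EGF and 525 for the interaction. None of them was a member. Between AII+EGF and AII there were 949 such genes, KLF6 and KLF9 among them. Libraries of a condition also differed more: edgeR's biological coefficient of variation was 29.1%, and 10.6% in the 6 h table. EGR1 still lay above control, which was at 3.72 to 5.95 FPM, with 25.3 to 33.0 FPM under EGF and 33.6 to 40.5 FPM under AII+EGF.

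**Figure D4:**
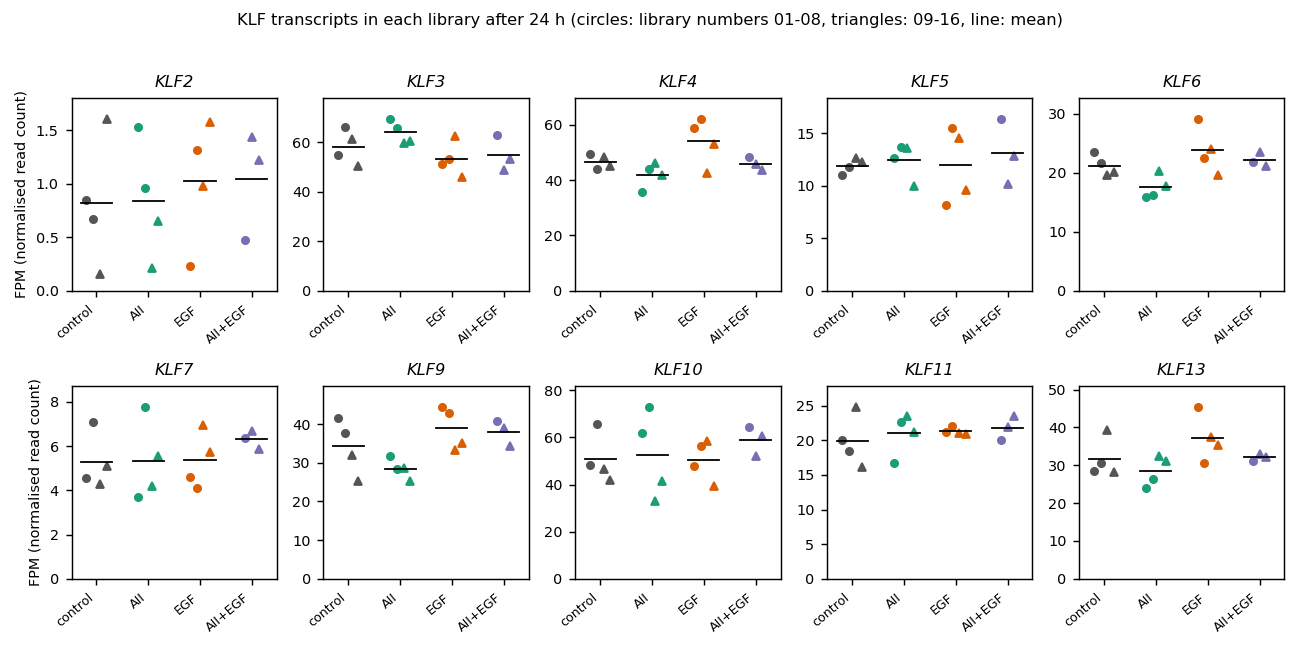
FPM (normalised read count, linear axes from 0) of the 10 KLF transcripts in the 15 libraries after 24 h, with circles and triangles for the 2 runs of library numbers and lines for the means. The EGF and AII+EGF libraries overlap with control in all 10 panels, and KLF6 and KLF9 lie higher with AII+EGF than with AII.

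KLF5 measured 11.1, 11.8, 12.7 and 12.2 FPM in control after 24 h and 8.20, 15.5, 14.5 and 9.62 FPM with EGF. The EGF libraries lay on both sides of the control libraries, and the log2 fold change was 0.01 (95% interval -0.41 to 0.43). KLF10 had a log2 fold change of -0.0006 (interval -0.41 to 0.41) and KLF13 of 0.23 (interval -0.068 to 0.52). KLF13 measured 28.6, 30.6, 39.3 and 28.3 FPM in control, 45.5, 30.5, 37.4 and 35.3 FPM with EGF and 31.0, 32.9 and 32.2 FPM with AII+EGF. All 3 conditions overlapped, and with AII+EGF the log2 fold change of KLF13 was 0.01 (interval -0.31 to 0.33).

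The other members after 24 h are described by their intervals with EGF. These ran from -0.38 to 0.13 for KLF3, from -0.041 to 0.47 for KLF4 and from -0.12 to 0.46 for KLF6. For the Sin3A-binding members KLF9 and KLF11 they were -0.12 to 0.49 and -0.21 to 0.41. KLF7, with 40 to 128 counts per library, had an interval of -0.53 to 0.58, and KLF2, with 2 to 28 counts, one of -1.14 to 1.82, so that even changes above 2-fold in KLF2 were not detectable at this depth. Over the 10 members the median log2 fold change was 0.13 with EGF and 0.14 with AII+EGF, against -0.003 and -0.006 over all tested genes.

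Between AII+EGF and AII after 24 h, KLF6 and KLF9 did not overlap, which held for 6.95% of all genes. KLF9 measured 31.8, 28.3, 28.6 and 25.3 FPM with AII and 40.8, 38.9 and 34.4 FPM with AII+EGF (log2 0.41, 95% interval 0.086 to 0.74, adjusted p = 1 in edgeR). KLF6 measured 15.9, 16.2, 20.3 and 17.8 FPM with AII and 21.9, 23.6 and 21.1 FPM with AII+EGF (log2 0.34, interval 0.020 to 0.65, adjusted p = 1). Neither AII nor AII+EGF separated these members from control, where KLF9 ranged from 25.4 to 41.7 FPM and KLF6 from 19.6 to 23.5 FPM.

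A joint fit of both tables over 21932 genes tested whether a response differed between 6 h and 24 h. For AII+EGF, the effect on KLF13 was lower after 24 h than after 6 h by -0.81 on the log2 scale (SE 0.18, 95% interval -1.17 to -0.46, adjusted p = 0.045 in edgeR), and it was the 1 member among 27 genes that passed (0.123%). The call lies at the edge of the threshold: it was lost on leaving out any 1 of the 4 control or 4 AII+EGF libraries after 6 h, any 1 of the 3 AII+EGF libraries after 24 h or control replicate 3 after 24 h (adjusted p 0.070 to 0.16), with a difference of -0.84 to -0.69 in these fits. Without the AII and AII+EGF libraries in which U1 exceeded 50% the difference was -0.82 and the adjusted p 0.11. The part of the U1 share in this difference was not tested otherwise.

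For EGF alone, 0.173% of the genes in the joint fit passed and no member was among them. The EGF effect on KLF5 was lower after 24 h by -0.73 (95% interval -1.20 to -0.26, adjusted p = 0.23 in edgeR), that on KLF10 by -0.47 (-0.95 to 0.0052, adjusted p = 0.50) and that on KLF13 by -0.38 (-0.72 to -0.044, adjusted p = 0.42). These intervals include differences as large as the whole 6 h effect of the same gene.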

How the data were processed

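The authors deposited raw read counts per gene, without normalization, for HEK293 cells after 6 h and after 24 h. Per the methods, total RNA depleted of rRNA was sequenced as paired ends, adaptors were clipped with cutadapt 1.8.1, reads were mapped to hg19 with Tophat2 2.0.14 and counted with featureCounts 1.4.6. HISAT2 is named instead of Tophat2 in the text of the series, and the methods of the paper give HISAT2 for stably transfected cells only. The strand setting is not given in the sources used here. Conditions came from the labels. Of 32 libraries, 31 were matched to a column of counts; 1 AII+EGF library after 24 h was not analysed here. After 24 h, 8 of 15 columns are named as filtered, without an explanation.

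From the counts, TMM factors, the filter filterByExpr and quasi-likelihood tests came from edgeR 4.0.16 (R 4.3.3), with 1 fit per time point holding all 4 conditions. Fold changes are edgeR's log2 values, and intervals are 95%. A gene passed at a Benjamini-Hochberg adjusted p under 0.05. As in the study, it was called at a fold change above 1.5 and a mean above 5 FPM in addition. Time points were compared in a joint fit. For single members, FPM values were also permuted exactly between groups (two-sided). Correlations used log2(FPM + 0.5). Exonic lengths and coordinates came from a GENCODE annotation of GRCh37 and promoter windows from RefSeq (GRCh38.p14); lengths can differ from those of the annotation behind the counts. Only the test of EGF against control within a time point was tried on simulated counts, with libraries drawn independently. The other comparisons and the joint fit were not tried in this way. The named genes were the 10 members, the list genes that passed, and the 3 genes most like each member called after 6 h. Members and lists were chosen with earlier results of these data known. Counting error limits KLF2 and KLF7.

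Within a condition, every pair of libraries differed by more than sampling noise (lowest chi-square per gene 2.07 for 6 h, 20.1 for 24 h). The alternatives tried were protein-coding genes only, DESeq2 1.42.0 or its size factors alone, keeping genes with low counts, dropping the fold and FPM limits, a block for the runs of library numbers (01 to 08 and 09 to 16), and leaving out single libraries. Leaving out the libraries above 50% U1 was chosen after seeing the data.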

Additional observations from a re-analysis of the deposited data

Results flagged for a closer look

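The effect of AII+EGF on KLF13 differed between the time points, by -0.812 on the log2 scale (24 h minus 6 h, adjusted p = 0.045 in edgeR's joint fit). After 6 h it was 0.80 and after 24 h 0.01. The call is fragile, because it was lost in 12 of 15 fits that left out 1 library.

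A library far from the other 3 of its condition was found for 2 of 70 combinations of a KLF gene, a time point and a condition with 4 libraries, where chance gives about 1 in 20. With EGF after 6 h, replicate 1 had 35.2 FPM of KLF5, against 28.7 to 29.1 FPM in the other 3, and its gap to the nearest was 0.936 of the range, above Dixon's 95% critical value. Without this library the log2 fold change of KLF5 with EGF was 0.67 (adjusted p = 0.0024 in edgeR). With EGF after 6 h, replicate 3 had 65.8 FPM of KLF10, against 73.9 to 74.9 FPM in the other 3, a gap of 0.894 of the range.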

How the results depend on the processing

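The adjusted p of KLF5 and KLF13 with EGF, and of KLF13 with AII+EGF, stayed under 0.05 in all 13 alternatives each. The alternatives followed 26 single fold changes, of KLF5, KLF8, KLF10, KLF11, KLF13, CCND1 and CDKN1A. Most of these had passed in the main fit, and none reversed its direction. Fold changes of the other named genes were not followed one by one. The number of KLF genes called after 6 h was 3 instead of 1 for AII+EGF against control, and 2 instead of 1 for AII+EGF against AII, without the fold and FPM limits, which by construction admit smaller changes. Leaving out 1 library at a time gave 1 to 3 called KLF genes with EGF, while AII+EGF against control gave 1 to 2 (the higher without control replicate 2), and 1 to 3 with an adjusted p under 0.05 for AII+EGF against control. It gave 0 to 1 for the AII+EGF effect between the time points, which was 0 without the AII and AII+EGF libraries above 50% U1 (chosen after seeing the data). Median log2 fold changes of the members that lay near 0 did change sign: that of AII against control after 24 h (0.024, with a range of -0.14 to 0.041 over the alternatives, the lowest without AII replicate 2), of AII+EGF against EGF after 6 h (-0.039, range -0.047 to 0.0016) and 24 h (0.0084, range -0.060 to 0.046), and of the interaction after 24 h (0.011, range -0.016 to 0.12). No paired analysis was possible because replicate numbers are not given by the labels; the runs of library numbers as a block moved 1 KLF gene across the adjusted p of 0.05, KLF10 in AII+EGF against AII after 6 h (2 members passed, and 3 with the block), and changed no count of KLF genes called with the fold and FPM limits. Depth limits KLF2 and KLF7, and the wider spread after 24 h limits every member there.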
